A study of Mus musculus and blank sample with 91 samples.

Results

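Prevotellaceae is the family of the order Bacteroidales that the deposited taxonomy names for the genus Prevotella, and its members here were the ASVs (amplicon sequence variants) whose family field reads Prevotellaceae. There were 104 such ASVs among 2295, and after removal of the primers they held 44 distinct sequences among 501. All carried the genus name Prevotella, with 81 ASVs listed as Prevotella without a species and 23 as Prevotella CAG-873. Feces of female C57BL/6 mice (C57BL/6J in the study's methods), 8 weeks of age, were sequenced for the V3 and V4 regions of the 16S rRNA gene. Naïve mice were left untreated. EAE mice were immunized under the skin with 50 µg of the myelin peptide MOG35–55 in Complete Freund's Adjuvant and received 250 ng of pertussis toxin into the peritoneum on days 0 and 2. CFA mice were given the adjuvant alone, so that CFA and EAE mice differed in both the peptide and the toxin. Samples were taken at −2, 8, 14, 19 and 29 days post immunization (dpi) from up to 6 mice per treatment and day. The naïve and CFA mice carry the same numbers throughout, while 6 EAE mice were sampled at −2 and 8 dpi and 6 others at 14 to 29 dpi, and 30 naïve, 29 CFA and 29 EAE samples were used. Mice were housed 2 to 3 per cage and each cage had a single treatment. The labels do not give the cages, so cage and treatment cannot be told apart, and mice of a cage share feces. The p-values treat mice as separate.

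Prevotella are anaerobic bacteria of the gut and mouth that ferment plant polysaccharides and release acetate, succinate and other acids. In the mouse gut they share the order Bacteroidales with Muribaculaceae, the family of Muribaculum, and with Barnesiella. Close relatives differ by few bases in V3 and V4, and a genus name for a sequence of this length depends on the reference it is compared with. The ASVs were inferred with the primers still attached. The primers contain ambiguous positions, so that ASVs with an identical sequence between the primers can differ at these positions alone. Such ASVs are called primer variants below, and the sequences between the primers are numbered Pv1 to Pv44 by their total count.

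Pv1 made up nearly the whole family. It took 640378 of the 667205 counts named Prevotellaceae (96.0%), was present in 76 of 88 samples and is 421 bases long with 55.8% G and C. Pv2, Pv3 and Pv4 are 422 bases long and together held 25157 counts (3.77% of the family), and Pv5 to Pv10 held 1479 (0.222%). The remaining 34 sequences held 191 counts in all, with 1 to 17 each. Pv2, Pv3 and Pv4 differed from each other by 3 to 4 edits, an edit being a changed, added or lost base. They lay 44, 45 and 46 edits from Pv1, and only 28 to 32 edits from the pair of leading Muribaculum intestinale sequences in the table, M1 and M2. Pv1 was 45 and 44 edits from M1 and M2. The genus name Prevotella therefore covers 2 sets of sequences that are farther from each other than Pv2 to Pv4 are from M1 and M2. Another leading Muribaculum sequence, M3, also carries the name Barnesiella and lay 47 to 48 edits from Pv2 to Pv4 and 44 from Pv1. Whether the name Prevotella holds for either set was not tested, since no reference collection of 16S sequences was used here.

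**Figure D1:**
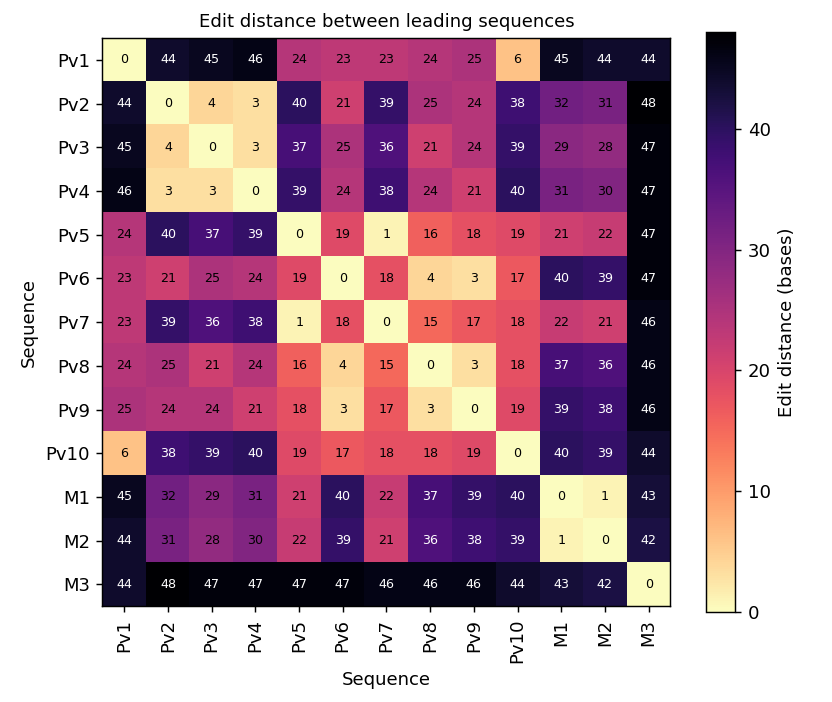
Edit distance in bases between the sequences Pv1 to Pv10 and the leading Muribaculum sequences M1, M2 and M3 (the last also carries the name Barnesiella); rows and columns are sequences and each cell gives its distance. Pv2 to Pv4 lie 3 to 4 edits from each other, 44 to 46 from Pv1 and 28 to 32 from M1 and M2.

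The name given to Pv1 changed with its primer bases. Besides 29 ASVs named Prevotella, 5 ASVs with exactly the sequence of Pv1 were named Barnesiella intestinihominis, of the family Porphyromonadaceae, and held 140631 counts. They were present in 42 of the 76 samples with Pv1 and took up to 59.5% of the sequence in a sample (median 14.1%). In the CFA mouse 548 at 19 dpi, Pv1 stood at 7.84% of counts under the name Prevotella and at 18.4% under any name. Pv1 was the only sequence of the family that carried a name of another family. Values for the family are therefore given as named, and again with every ASV that has a sequence of the family counted whatever its name. This second count was added once the data had been seen.

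**Figure D2:**
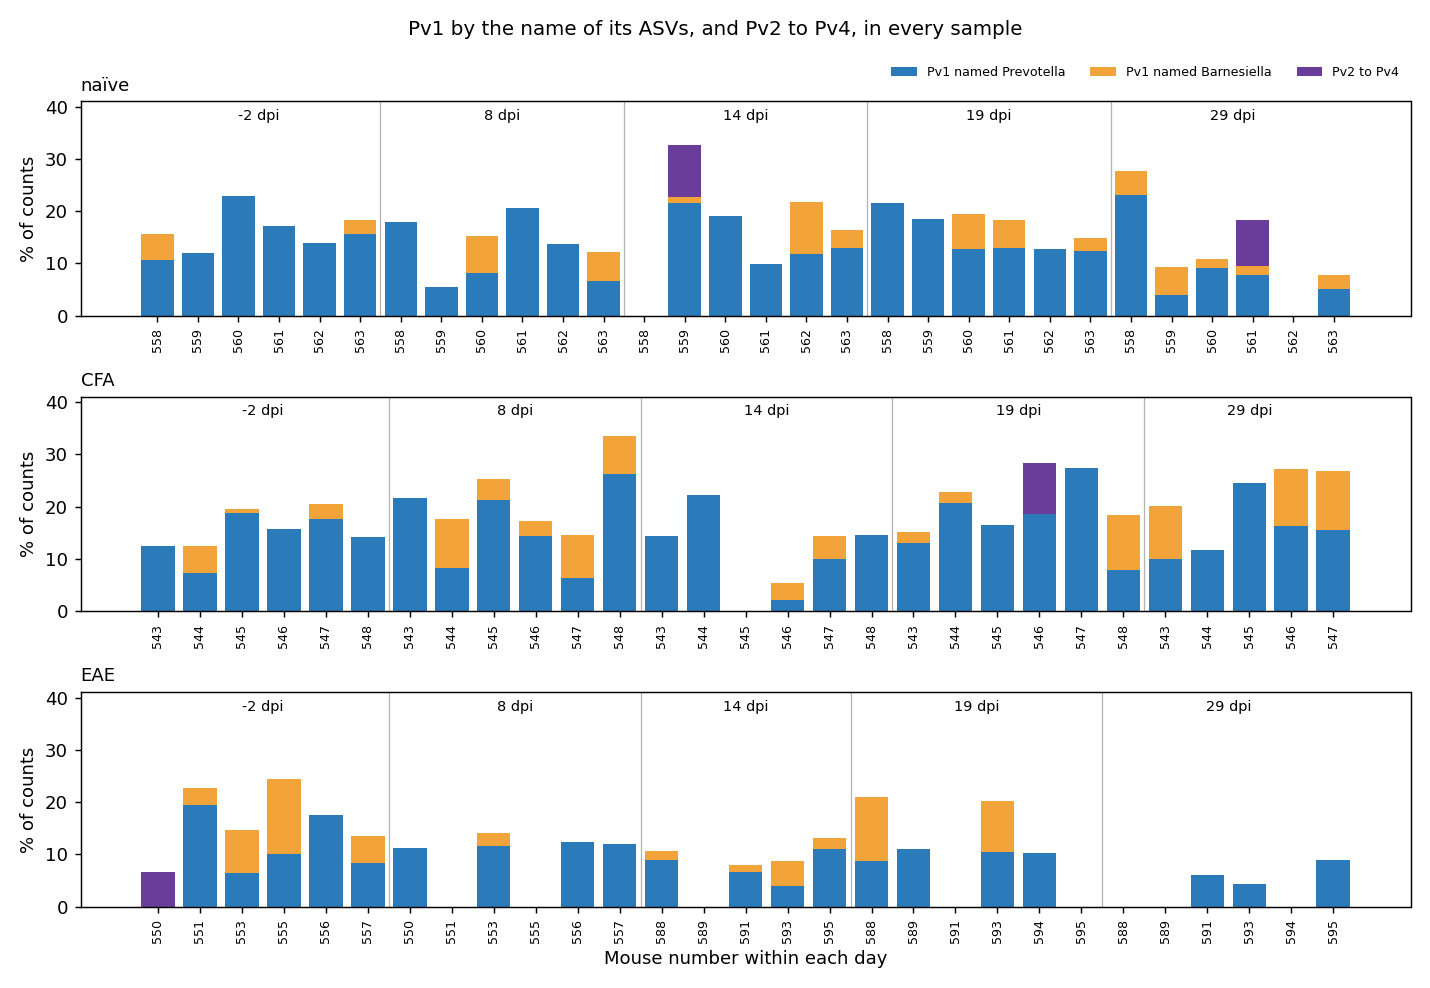
Relative abundance (% of a sample's counts) of Pv1 named Prevotella, Pv1 named Barnesiella and the sum of Pv2 to Pv4 in each of 88 samples, 1 bar per sample, by treatment and day with the mouse number below. Orange parts, up to 59.5% of Pv1 in a sample, are the same sequence under the other name, and purple is present in 4 samples.

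Each sample held only part of the primer variants of Pv1. The reverse primer allows 9 pairs of bases at its ambiguous positions and the forward primer 8, and over all samples Pv1 was seen with 8 reverse pairs and 5 forward pairs in 34 ASVs. Of the 76 samples with Pv1, 54 held a single reverse pair, and 51 of these held it with all 5 forward pairs. A second or further reverse pair was present in 10 of 28 naïve samples with Pv1, in 12 of 28 CFA samples and in 0 of 20 EAE samples, −2 dpi included. Pv1 under any name had a median of 14.3% of counts in the 54 samples with 1 reverse pair (range 4.39% to 27.7%), of 15.6% in the 15 samples with 2 (5.46% to 33.6%) and of 19.8% in the 6 samples with 3 (14.4% to 27.1%). The only sample with 4 pairs, of a CFA mouse at 29 dpi, had 26.8%. The groups already stood in this order at −2 dpi, with 1 of 6 naïve, 2 of 6 CFA and 0 of 5 EAE samples, and the difference between treatments was not tested. Naïve mice stood above CFA mice at 8 dpi (2 and 1 of 6 samples) and at 19 dpi (3 and 2 of 6). Reverse pairs were counted for Pv1 only, so whether other sequences show the same is not known. Chimeras were removed from ASVs that still carried their primers, and whether this took variants of Pv1 from a sample, and with them part of its percent, was not tested. Every percent of Pv1 given here is that of the variants that were kept.

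**Figure D3:**
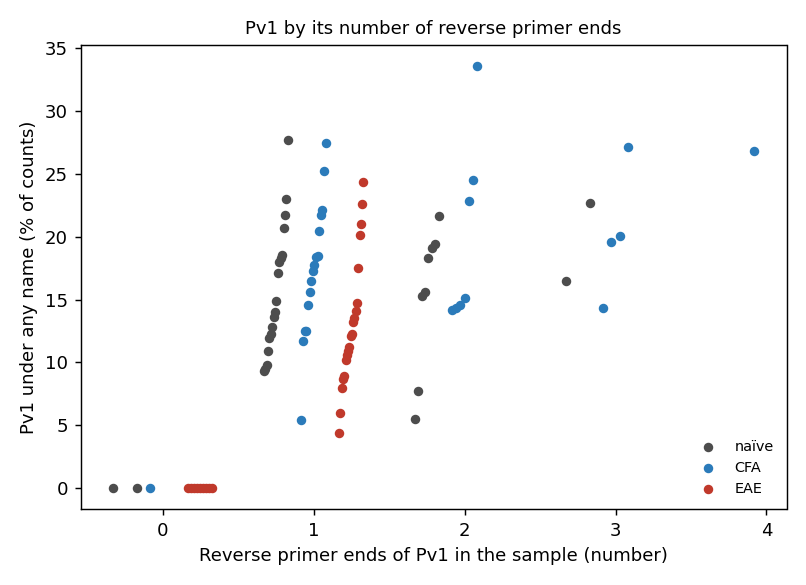
Percent of counts in Pv1 under any name (y axis) by the number of different reverse primer ends with which it was found in the sample (x axis), 1 point per sample, coloured by treatment and shifted sideways so that points do not overlap. All 20 EAE samples with Pv1 lie at 1 end, while 22 naïve and CFA samples lie at 2 to 4.

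Prevotellaceae had its lowest mean in EAE mice at 29 dpi and its highest in CFA mice at 19 dpi. In EAE mice at 29 dpi the relative abundance was listed at 0 in 3 mice and was 4.39%, 5.99% and 8.92% in the others, with a mean of 3.22% ± 3.81 (SD, n = 6). The CFA mice at that day had 10.1%, 11.8%, 15.5%, 16.5% and 24.8%, with a mean of 15.7% ± 5.68 (SD, n = 5). No EAE sample reached the lowest CFA sample. The difference of −12.5 percentage points had p = 0.00433 (two-sided exact permutation test), and p = 0.0584 after Benjamini-Hochberg adjustment over 27 comparisons. Naïve mice at 29 dpi ran from 0 over a median of 7.09% to 23.4% and overlapped EAE mice throughout (adjusted p = 0.437, exact permutation test).

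At 19 dpi EAE mice ran from 0 over a median of 9.48% to 10.9%, with a mean of 6.72% ± 5.26 (SD, n = 6). Naïve mice ran from 12.4% over 12.9% to 21.7%, with a mean of 15.2% ± 3.93 (SD, n = 6). The ranges did not overlap, and the difference of −8.46 percentage points had p = 0.00216, the smallest an exact permutation test of 6 against 6 can give, and an adjusted p of 0.0584. With the other comparisons as they were, this one could not pass after adjustment. CFA mice at 19 dpi ran from 7.85% over 18.7% to 28.4%, which overlapped EAE mice (difference −12.3 percentage points, exact permutation test, p = 0.0152, adjusted p = 0.102).

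With the same sequences counted under any name, EAE and naïve mice overlapped at 19 dpi, and EAE and CFA mice stood further apart at 29 dpi. EAE mice at 19 dpi then reached 21.1%, the difference from naïve mice was −7.22 percentage points and the exact permutation test gave an adjusted p of 0.216. At 29 dpi EAE mice kept a mean of 3.22%, CFA mice had a mean of 22.2% ± 6.44 (SD, n = 5), and the difference of −19.0 percentage points had an adjusted p of 0.0292 (exact permutation test). At 8 dpi EAE mice had a mean of 8.28% ± 6.48 (SD, n = 6) and CFA mice of 21.7% ± 7.02 (SD, n = 6), with an adjusted p of 0.0292 (exact permutation test). The EAE mice 551 and 555, at 0 at 8 dpi, had totals under 20000, and without them the difference was −9.33 percentage points with an adjusted p of 0.214 (exact permutation test). Without totals under 20000 the difference at 29 dpi was unchanged, and its p adjusted over the comparisons of these samples was 0.0584 (exact permutation test). When Pv1 was further divided by its number of reverse pairs in the sample, the adjusted p values of these 3 comparisons were 0.640, 0.175 and 0.0584 (exact permutation tests), and at 29 dpi the CFA mean was 9.42% ± 2.70 (SD, n = 5).

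**Figure D4:**
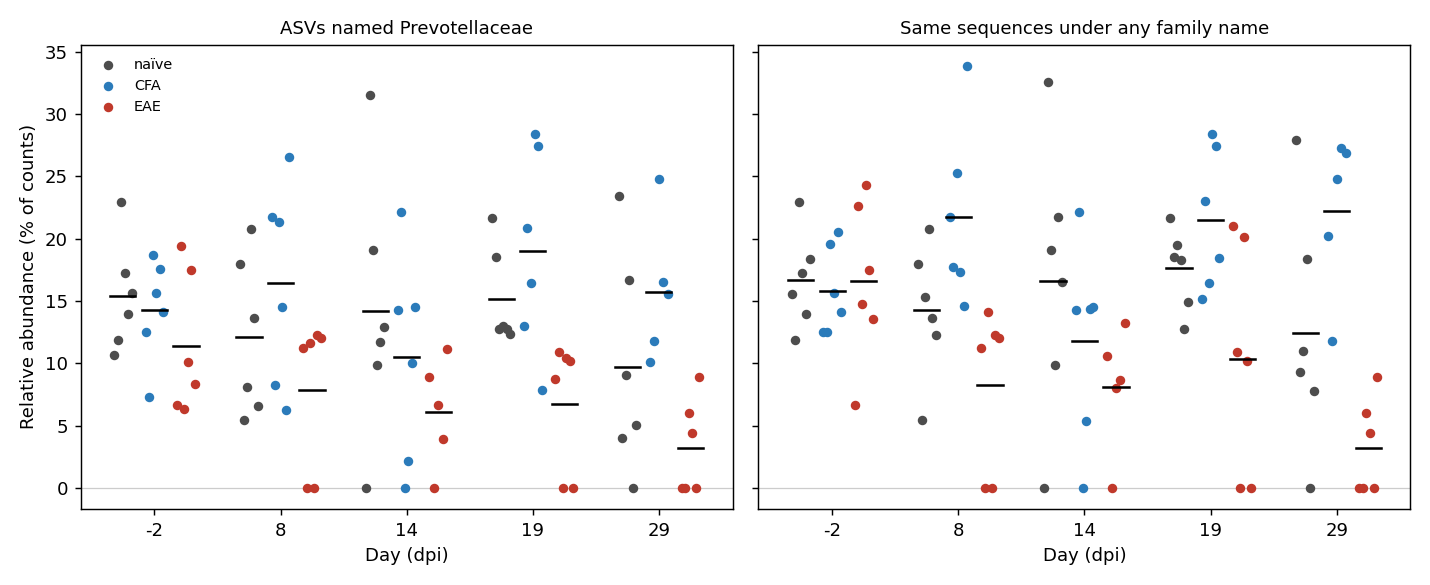
Relative abundance of Prevotellaceae (% of a sample's counts) by day, 1 point per sample and a black bar for the mean of each treatment, for ASVs named Prevotellaceae (left) and for the same sequences under any family name (right). EAE samples at 29 dpi lie at or below 8.92% in both panels, and CFA samples at 29 dpi at or above 10.1% (left) and 11.8% (right).

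As named, no comparison between treatments passed the threshold, which that of EAE with naïve mice at 19 dpi could not do with the others as they were. At −2 dpi the means were 15.4% ± 4.40 in naïve, 14.3% ± 4.10 in CFA and 11.4% ± 5.65 in EAE mice (SD, n = 6 each), with adjusted p of 0.437 for EAE against either and 0.732 for CFA against naïve mice (exact permutation tests). Under any name the EAE mean at −2 dpi was 0.747 percentage points above that of CFA mice. At 14 dpi the means were 14.2% ± 10.5 (SD, n = 6), 10.5% ± 8.33 (SD, n = 6) and 6.13% ± 4.36 (SD, n = 5). CFA and naïve mice passed the test at no day; at 29 dpi they had means of 15.7% and 9.71% (exact permutation test, adjusted p = 0.437), and with Pv1 under any name divided by its reverse pairs the order turned, with 9.42% and 11.8%. Relative to −2 dpi, the largest change within a treatment was that of EAE mice at 29 dpi, from 11.4% to 3.22% (exact permutation test, p = 0.0152, adjusted p = 0.102). Under any name the means were 16.6% and 3.22% with an adjusted p of 0.0390 (exact permutation test). EAE samples at 14 to 29 dpi carry other mouse numbers than those at −2 and 8 dpi, so the change cannot be followed in single EAE mice. The EAE mice compared at 14 to 29 dpi therefore have no −2 dpi sample of their own. In every comparison of these EAE samples with naïve, CFA or earlier EAE samples, treatment or day and the set of mice cannot be told apart.

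The family was listed at 0 in 11 of 88 samples, and in no sample at −2 dpi. After immunization 8 of 23 EAE samples were at 0, against 2 of 24 naïve and 1 of 23 CFA samples. Where the family was present it was never rare: its lowest level above 0 was 2.19% of counts, and a floor of 3 counts in the shallowest sample is 0.0326%. Whether ASVs were inferred in each sample or over pooled samples is not given in the sources used here. A listed 0 means that no ASV of the family was kept in the sample, and the floor covers counting error only. Among the 11 samples, 4 were EAE samples with totals of 9202, 15279, 17326 and 17439 and with 4 to 37 ASVs of any kind, and these were the only samples with a total under 20000. The other 7 had totals from 42233 to 97275 and 41 to 150 ASVs, against at least 55 ASVs in samples with the family. In 8 of the 11 samples no Bacteroidales were listed at all, and in the EAE mice 591 at 19 dpi, 588 at 29 dpi and 594 at 29 dpi Bacteroidales of other families made up 8.64%, 2.43% and 12.5% of counts. Taken per mouse over 14 to 29 dpi, a test chosen after seeing the data, 36.1% ± 22.2 of the samples of an EAE mouse were at 0, against 11.1% ± 17.2 in naïve and 5.56% ± 13.6 in CFA mice (SD, n = 6 each, two-sided exact permutation tests, adjusted p = 0.185 and 0.162). Without samples under a total of 20000 the share in EAE mice was 27.8% ± 22.8 (SD, n = 6).

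Full replacement of Pv1 by the other main sequences was seen in 1 sample. In the EAE mouse 550 at −2 dpi, Pv1 was listed at 0, and Pv2, Pv3 and Pv4 stood at 2.62%, 2.09% and 1.94% of counts and formed 100% of the family. In 3 further samples they stood beside Pv1. In the naïve mouse 559 at 14 dpi they reached 4.09%, 2.92% and 2.89%, in the naïve mouse 561 at 29 dpi 3.29%, 2.95% and 2.59%, and in the CFA mouse 546 at 19 dpi 4.87%, 2.49% and 2.53%. Together they formed 31.4%, 53.0% and 34.8% of the family as named in mice 559, 561 and 546. The 3 sequences were present in exactly these 4 samples and at 0 together in the other 84, and Pv2 took 37.3% to 49.2% of their sum. No mouse had them on more than 1 day. Mouse 550 had Pv1 at 8 dpi, at 11.2% of counts, and Pv2 to Pv4 at 0. In the remaining 76 samples with the family Pv1 was the leading sequence, and in 70 of them it made up over 99% of the family, so that nearly all change in the family was change in Pv1.

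**Figure D5:**
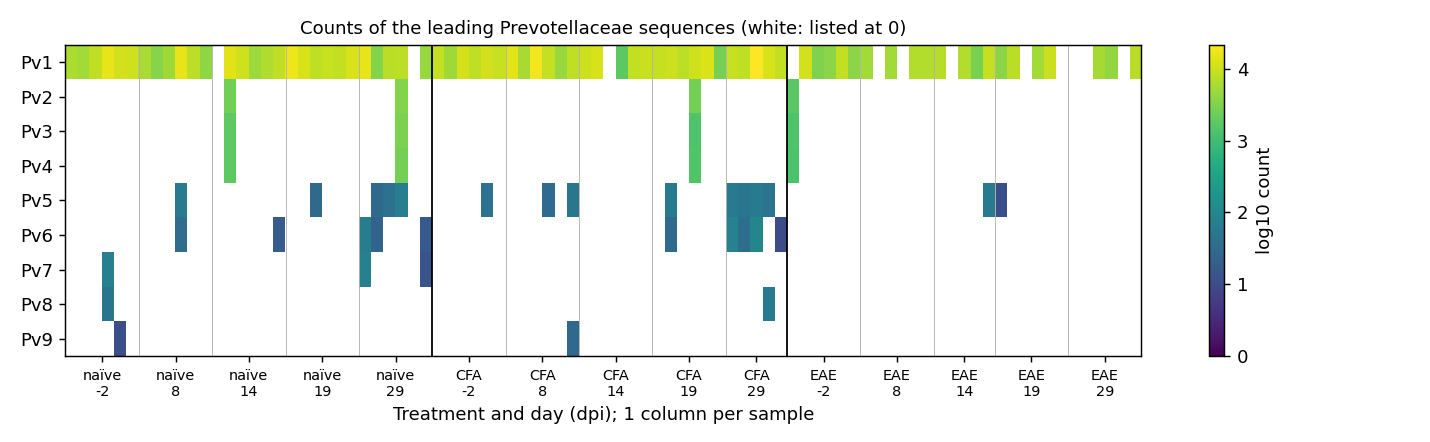
Counts of Pv1 (named Prevotella) and Pv2 to Pv9 in 88 samples on a log10 colour scale, 1 column per sample in order of treatment and day, with white for a listed 0. Pv2 to Pv4 are present in the same 4 samples, and Pv5 to Pv9 mostly in naïve and CFA samples with Pv1.

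Most of the smaller sequences could be written as exact joins of larger ones. A sequence was counted as a join where its left part is identical to the start of a more abundant sequence in the table and the rest to the end of another. This held for 27 of the 44 sequences (61.4%), against 156 of all 501 (31.1%). The left and right matches may overlap, so that a sequence 1 edit from its source, such as Pv7, also counts. For 2 of the 27 did any sample with the join also hold both source sequences. The same was not counted for the 156 joins of all families, so whether 2 of 27 is low is not known. How the joins arose was not tested. Pv5 matched M1 over its first 226 bases and Pv1 over its last 293, and Pv6 matched Pv2 over its first 227 bases and Pv1 over its last 291. Pv5 had 712 counts in 15 samples and at most 0.164% of counts in a sample, and Pv6 had 425 counts in 10 samples and at most 0.113%. Muribaculaceae were listed at 0 in all 15 samples with Pv5, and Pv2, Pv3 and Pv4 at 0 in all 10 samples with Pv6. The sequences that supply the left parts were thus absent from the listed counts of every sample that held these joins, and Pv1 was present in all of them. Over all 88 samples M1 was present in 9, 7 of them of EAE mice, Pv2 to Pv4 in the same 4 and Pv1 in 76. Whether the samples with joins departed from these shares was not tested. Pv7 was within 1 edit of Pv5, and Pv8 and Pv9 within 3 to 4 edits of Pv6. Pv5 to Pv10 were present in 10 of 30 naïve, 9 of 29 CFA and 2 of 29 EAE samples, and 4 of 5 CFA samples at 29 dpi held Pv5.

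The species name Prevotella CAG-873 rested on 119 counts. They lay in 23 ASVs of 22 sequences and 19 samples (5 naïve, 8 CFA and 6 EAE), with at most 16 counts and 0.0271% of counts in a sample. These sequences belong to the 34 that are numbered from Pv11 on, which are 401 to 426 bases long (median 402). Of the 34, 21 were joins by the definition above, and over the whole family 20 joins had their left part from families of other orders, such as Lachnospiraceae and Ruminococcaceae, while 26 had their right part from a Prevotellaceae sequence. With so few counts no change of CAG-873 was detectable at this depth.

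Counts per sequence were compared across all families with the quasi-likelihood test of edgeR, with ASVs of the same sequence summed under any name. Of 203 sequences with counts in at least 3 samples, 7 belonged to the family, Pv1 to Pv7. Pv1 passed the threshold in 0 of 27 comparisons, with 0 at an unadjusted p under 0.05. Its largest fitted change was that between EAE and CFA mice at 29 dpi, −2.93 on the log2 scale with an edgeR adjusted p of 0.122. DESeq2, an alternative, gave −3.37 with an adjusted p of 0.0376 there, where it called 82 of the 173 sequences to which it gave a p (47.4%). DESeq2 gave no p for Pv2, Pv3 and Pv4 in any comparison. Against naïve mice at 29 dpi the fitted change of Pv1 was −2.48 (edgeR adjusted p = 0.200), and at 19 dpi −1.48 (edgeR adjusted p = 0.664).

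Pv2, Pv3 and Pv4 were each called in 4 comparisons by edgeR, and each call rested on 1 mouse. They were called lower in EAE than in naïve mice at 29 dpi (edgeR adjusted p = 0.0339 for each), lower in EAE than in CFA mice at 19 dpi (0.0333, 0.0404 and 0.0407 by edgeR), lower in CFA than in naïve mice at 14 dpi (0.0422 for each by edgeR) and higher in CFA than in naïve mice at 19 dpi (0.0393, 0.0435 and 0.0435 by edgeR). In each of these comparisons all counts came from the single mouse named above, and without it the sequences are at 0 in both groups. Pv5, Pv6 and Pv7 were called lower in EAE than in naïve mice at 29 dpi (edgeR adjusted p = 0.0473 for each). Pv5 had 32, 42 and 71 counts in 3 of the 6 naïve samples, Pv6 had 17, 24 and 70 in 3 and Pv7 had 13 and 76 in 2, and the EAE samples were at 0. Over all days Pv7 was present in 3 samples, all of naïve mice, so it met the filter through naïve samples alone. Pv6 and Pv7 were in 0 EAE samples at any day, so a call against naïve mice could only be lower in EAE mice. No sequence of the family was called against −2 dpi within a treatment.

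The background of these calls was the share of all 203 sequences that edgeR called. Between EAE and naïve mice it was 0.493%, 2.96%, 3.45%, 6.9% and 36.9% in order of day, from −2 to 29 dpi. Between EAE and CFA mice it was 0.493%, 7.88%, 8.87%, 14.8% and 1.48%, and between CFA and naïve mice 5.42%, 3.94%, 8.37%, 12.8% and 2.46%. Against −2 dpi at 8, 14, 19 and 29 dpi it was 0%, 1.97%, 1.97% and 0% in naïve mice, 1.48%, 0.493%, 0.985% and 0% in CFA mice and 0%, 0.985%, 0% and 0% in EAE mice. The 6 of 7 sequences called between EAE and naïve mice at 29 dpi thus stand against a background of 36.9%. They are not separate results, since Pv2 to Pv4 rest on the same mouse and Pv7 met the filter through naïve samples alone. Of the 4 tested sequences of other Bacteroidales families, 3, M1, M2 and M3, were called higher in EAE than in naïve mice at 29 dpi. M3 had counts in 5 samples, all of EAE mice, so it met the filter through EAE samples alone and could only be called higher in them. M1 and M2 are 1 edit apart and were present in the same 9 samples, so their calls are not separate results. M1 was also called higher at 19 dpi against naïve and, with M2, against CFA mice. At 29 dpi none of the 4 was called between EAE and CFA mice, and at −2 dpi M1 was called lower in CFA than in naïve mice. That call at −2 dpi rested on the naïve mouse 558 alone, since the other naïve samples of that day held no Bacteroidales of other families.

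As a share of Bacteroidales, the sequences of Prevotellaceae were nearly alone in naïve and CFA mice, and in EAE mice at 8 and 14 dpi. With the sequences counted under any name, they formed 100% of Bacteroidales counts in all 28 CFA samples and in 26 of 28 naïve samples with the order, and 77.3% and 82.7% in the naïve mice 558 at −2 dpi and 562 at 8 dpi. In EAE mice at −2 dpi 4 of 6 samples were at 100% and the lowest was at 57.2%. At 8 dpi the 4 EAE samples with the order ran from 99.9% to 100%, and at 14 dpi all 4 were at 100%. In EAE mice at 19 dpi this share ran from 0 over a median of 75.5% to 100% (n = 5), and at 29 dpi from 0 over 39.2% to 80.6% (n = 5). As named, the share was 48.8% ± 31.1 in EAE mice at 19 dpi (SD, n = 5) and 86.6% ± 15.8 in naïve mice (SD, n = 6), and none of 15 comparisons between treatments passed the threshold (smallest p = 0.0238 at 19 dpi, adjusted p = 0.321, two-sided exact permutation tests). At 29 dpi, where all 5 EAE samples with the order lay below 100%, the share under any name differed from that of naïve and of CFA mice by −62.2 percentage points (exact permutation tests, adjusted p = 0.0595 for each). The groups did not overlap, and the smallest p an exact permutation test of 5 against 5 can give is 0.00794. With the other comparisons as they were, neither could pass after adjustment. M1 and M2 were present in the same 9 samples, 7 of them of EAE mice, and M3 in 5 samples, all of EAE mice.

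The makeup of the family moved little from day to day in most samples. The Bray-Curtis dissimilarity between a sample's shares by sequence and the mean shares of its treatment at −2 dpi had group medians of 0.000676 to 0.00875 in naïve and CFA mice after −2 dpi. Samples in which Pv2 to Pv4 stood beside Pv1 were higher. The naïve mouse 559 at 14 dpi had 0.314, the naïve mouse 561 at 29 dpi 0.535 and the CFA mouse 546 at 19 dpi 0.349. In EAE mice after −2 dpi the dissimilarity was 0.167 in all 15 samples, which is the weight of mouse 550 in the −2 dpi mean. The lowest value after −2 dpi, that of samples with Pv1 alone, was 0.000676 in CFA and 0.00163 in naïve mice, so each treatment has a constant of its own that comes from its −2 dpi samples. Differences between treatments in this measure therefore compare the −2 dpi means and are read as no change in makeup. They passed for EAE against naïve mice at 8 and 19 dpi, EAE against CFA mice at 8 and 14 dpi and CFA against naïve mice at 14 dpi (exact permutation tests, adjusted p = 0.0190 for each) and for EAE against CFA mice at 29 dpi (exact permutation test, adjusted p = 0.0357, and 0.0571 without any 1 of the CFA mice). With 1 CFA mouse fewer the groups were too small for the comparison at 29 dpi to pass after adjustment. Without mouse 550 in the mean, which was tried once the data had been seen, the EAE medians were 0.000545 to 0.00165 and none of these comparisons passed. Against the mouse's own −2 dpi sample, neither the comparisons at 8 dpi nor that of CFA with naïve mice at 14 dpi passed (exact permutation tests, adjusted p = 0.496 for each).

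Within EAE mice no relation of Prevotellaceae with disease was detected. The clinical score grades paralysis, and 0 is the absence of signs. At 19 dpi the mice at 0 for the family had scores of 0 and 3.5, and the 4 others had 2, 2, 4 and 4 with 8.75%, 10.9%, 10.4% and 10.2% of counts. These percents and the correlations below are as named. Under any name these 4 mice had 21.1%, 10.9%, 20.2% and 10.2%, and correlations with the percent under any name were not run. At 29 dpi the 3 mice at 0 had scores of 2.75, 2.25 and 3.5, and the others 3, 3.75 and 3. Over 6 mice the correlation with score was r = 0.433 (Spearman rho = 0.358) at 19 dpi and r = 0.245 (rho = 0.308) at 29 dpi, and with body weight r = −0.188 (rho = 0.0580) and r = 0.611 (rho = 0.213). The smallest p of the 4 relations was 0.150 (exact permutation test, adjusted p = 0.600) for r, and all adjusted p values of rho were 0.933. Without the 2 mice farthest from the median score or weight, r became −0.366 and −0.221 for score and 0.705 and −0.293 for weight, each of the opposite sign.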

How the data were processed

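Per the paper's methods, the authors inferred ASVs with DADA2, removed chimeras by consensus and named taxa by hand from several databases. The authors deposited read counts for each ASV in each sample without normalization, with totals of 9202 to 102437 in 88 samples (median 64586). A CFA sample at 29 dpi with a total of 0 was left out, and the water controls were not analysed here. Members and lists were chosen with earlier results of these data known.

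Primers were trimmed by pattern, and the 104 ASVs were summed by sequence. ASVs with the same sequence were found under 2 family names, so the sequence tests sum over names while the percents follow the name. Percents were compared by two-sided exact permutation tests over mice (15 comparisons between treatments, 12 against −2 dpi), with Benjamini-Hochberg adjustment over all of them and 0.05 as the threshold. Counts per sequence in at least 3 samples were tested with edgeR 4.0.16 (15 groups in 1 fit, TMMwsp factors from genus counts) in R 4.3.3, with DESeq2 1.42.0 as an alternative. Other steps used Python 3.11.15, numpy 2.4.6, pandas 2.3.3 and SciPy 1.17.1. On simulated counts of 203 sequences the edgeR step recovered 100% of 101 sequences changed 16-fold between EAE and naïve mice at 29 dpi, with simulated spread that leaves out the many listed zeros. Sequences in at least 6 samples, called sequences and each species name were named by rule, and Pv2 to Pv4 also meet it through their calls. Pv7 to Pv10, M1, M2 and M3 and single mice were named after their values were seen. Mouse numbers pair the naïve and CFA samples, being the same animals, although deviations of paired days from the group mean had a median correlation of −0.127 in naïve and −0.0677 in CFA mice. Shares of the family by sequence were compared in samples with at least 100 counts. Sequences are microbial and are not printed.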

Additional observations from a re-analysis of the deposited data

Results flagged for a closer look

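In 36 tests of the highest or lowest sample of a group, 4 samples stood apart from the rest of their group by the size of the gap relative to the range, and chance flags about 1 in 20 groups. All 4 concern the share of Bacteroidales counts held by the sequences of Prevotellaceae under any name. The naïve mice 558 at −2 dpi (77.3%) and 562 at 8 dpi (82.7%) and the EAE mouse 550 at 8 dpi (99.9%) were the only samples of their groups below 100%. In such groups any value below 100% stands apart, and in mouse 550 the sequences held 5464 of 5467 counts. The EAE mouse 591 at 19 dpi was at 0%, against 75.3% to 100% in the others. In this mouse Muribaculaceae made up 100% of Bacteroidales, at 8.64% of counts. The change from −2 dpi did not pass a test of its difference between treatments in any of 6 comparisons of mice that the labels link (exact permutation tests).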

How the results depend on the processing

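Comparisons of the family's percent kept their side of the threshold in 118 of 125 alternatives between treatments and in 101 of 103 against −2 dpi, and all 9 others moved past it. As percent of counts outside Lactobacillaceae these were EAE against naïve (−12.8 percentage points) and CFA mice (−23.0) at 19 dpi, EAE against CFA mice at 29 dpi (−14.1) and EAE mice at 29 dpi against −2 dpi (−13.6). With counts rarefied to the lowest total they were EAE against naïve mice at 19 dpi (−8.39) and against CFA mice at 29 dpi (−12.7). With the same sequence under any name they were EAE against CFA mice at 8 (−13.5) and 29 dpi (−19.0) and EAE mice at 29 dpi against −2 dpi (−13.4). The adjusted p of each was 0.0195 to 0.0390, against 0.0584 to 0.374 as reported. Differences that did not pass turned sign in 5 of 27 comparisons when Pv1 was divided by its reverse pairs, in 2 of 27 outside Lactobacillaceae, in 2 of 27 under any name (also without totals under 20000), in 1 of 27 as named without totals under 20000 and in 1 of 3 without the CFA mouse 545 at 29 dpi.

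With the mouse as a replicate block, no paired comparison of the percent with −2 dpi passed (lowest adjusted p = 0.643, exact sign-flip tests), and the block changed no call of edgeR against −2 dpi. For the makeup, a replicate block of the mouse's own −2 dpi sample left 3 comparisons that no longer passed, EAE against naïve (0.249) and CFA mice (0.247) at 8 dpi and CFA against naïve mice at 14 dpi (−0.0640). Without mouse 550 in the −2 dpi mean the sign turned for EAE against naïve mice at 8 (−0.00182) and 19 dpi (−0.000663) and against CFA mice at 8 (−0.00200) and 29 dpi (−0.00832), and EAE against CFA (0.00220) and CFA against naïve mice (−0.0635) at 14 dpi no longer passed. Leaving out any CFA mouse at 29 dpi gave 0.156 to 0.160 for EAE against CFA mice, and none passed. With the other comparisons as they were, groups this small could not pass after adjustment. This setting therefore cannot show whether the result depends on a single mouse.

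The number of sequences called was 6 for EAE against naïve mice at 29 dpi and 3 each for EAE against CFA mice at 19 dpi and CFA against naïve mice at 14 and 19 dpi. It became 0 in all 4 with no filter. DESeq2 gave no p for Pv2, Pv3 and Pv4, so it yields no count there, and Pv5, Pv6 and Pv7 had DESeq2 adjusted p of 0.631, 0.811 and 0.827 for EAE against naïve mice at 29 dpi. With only the groups compared in the fit it was 2, 0, 0 and 0 in that order, with 2 for EAE against CFA mice at 29 dpi and 1 for CFA mice at 29 dpi against −2 dpi. With total counts alone it was 1, 0 and 1 in the last 3, without totals under 20000 it was 1 for EAE against CFA mice at 19 dpi, and DESeq2 called 1 for EAE against CFA mice at 29 dpi, where it called 47.4% of all sequences with a p. With each ASV tested apart, 40 ASVs of the family were tested and 9, 11 and 11 were called for EAE against naïve mice at 14, 19 and 29 dpi, where 5.71%, 6.33% and 4.01% of all 648 ASVs were called. There were 12, 11, 13 and 1 for EAE against CFA mice at 8, 14, 19 and 29 dpi (6.64%, 9.26%, 5.56% and 0.617% of all) and 14, 9, 1 and 11 for CFA against naïve mice at the same days (5.86%, 5.25%, 1.39% and 3.09%). Against −2 dpi there were 9 for naïve mice at 29 dpi (2.62%), 9 and 10 for CFA mice at 8 and 14 dpi (4.01% and 3.7%), and 4, 11 and 7 for EAE mice at 14, 19 and 29 dpi (3.7%, 5.71% and 2.78%). Primer variants of Pv1 are not independent of each other. Merged, Pv1 was called in none of these by edgeR. The causes were not tested. Shares of Bacteroidales kept their side of the threshold in all alternatives run, though under any name those of EAE mice at 29 dpi could not have passed. Correlations without 2 mice were given no p. Totals of 9202 to 17439 limit what the 4 shallowest EAE samples can show.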
